A study of Arabidopsis thaliana with 4 samples.

Results

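The ribosomal stalk is the flexible arm of the large (60S) subunit that draws translation factors, among them the GTPases of elongation, to the ribosome. In eukaryotes the protein P0 anchors the stalk to the ribosomal RNA, and small acidic proteins of the P1 and P2 types bind to P0 as pairs. Plants have a further acidic type, P3, which other eukaryotes lack. The acidic proteins share a short C-terminal end that contacts the factors, are phosphorylated by casein kinase CK2 in the species studied, and unlike most ribosomal proteins can exchange on assembled ribosomes.

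The 10 genes described here encode acidic stalk proteins of Arabidopsis thaliana: 5 of type P2, 4 of type P1 and 1 of type P3. They were chosen by locus, as those for which the array annotation gives a probe set of that gene alone, and all 10 listed loci had 1 such probe set. They stand among 13350 named loci and 22746 probe sets tested. The family was picked because 1 of its genes, AT3G28500, was known to differ strongly between the genotypes in these same arrays, so the differences of the 10 genes are given as a description, without p-values. Expression was measured on Affymetrix ATH1 arrays in wild-type (WT) plants and in vip3-1 mutants, and the study describes its vip3 plants as homozygous for a null allele. VIP3 is a subunit of the plant Paf1 complex (Paf1C), which accompanies elongating RNA polymerase II. There were 2 arrays per genotype, each of total RNA from pooled seedlings 14 days old, and each pool held 3 independently derived samples of over 100 plants. The labels do not say which organs were taken. The mutant was represented by 1 allele, and each array by a pool, so the spread between arrays is that between pools.

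Values are MAS5 signals, which are intensities on a linear scale after background and mismatch correction. Array medians lay between 171.4 and 174.7 and upper quartiles between 548.4 and 566.6. The 4 measured genes of the 9 listed for green tissue, RCA, LHCB4.1, LHCB4.2 and PSAE-1, had signals from 16687 to 24728 on all arrays. Of 4 root markers 3 were measured: PYK10, whose product is a glucosidase of root endoplasmic reticulum bodies, fell, with means of 5239 ± 707 (SD, n = 2) for WT and 2958 ± 383 for vip3. Its adjusted p in limma was 0.0062, and it rose to 0.086 when vip3 replicate 1 was dropped and to 0.053 when vip3 replicate 2 was. The genes EXPA7 and AT5G17820 did not pass and stayed at or under 57.5. For EXPA7 the genotypes overlapped. AT5G17820 went the opposite way to PYK10, with 4.3 and 2.4 on the WT arrays against 4.4 and 7.6 on the vip3 arrays. Of 4 flower and pollen markers 2 were measured, AT5G07230 and AT5G45880, both of anther or pollen. They were dim and did not pass, but both vip3 arrays were higher for each, as they were for 25.9% of all probe sets. AT5G07230 gave 16.3 and 4.9 on the WT arrays against 39.6 and 22.6 on the vip3 arrays, and AT5G45880 gave 3.3 and 4.1 against 9.7 and 11. None of the 6 seed markers was measured. The ratio of 3' to 5' signal of the GAPDH control, a sign of RNA integrity, was 1.81 and 1.58 on the WT arrays against 1.51 and 1.63 on the vip3 arrays. The control for 25S ribosomal RNA read 148 and 137.6 on the WT arrays against 223.5 and 320.9 on the vip3 arrays. The part of the PYK10, anther or pollen marker and ribosomal RNA differences in the results below was not tested. Because the samples were bulk tissue, more RNA per cell and more cells of an expressing type cannot be told apart.

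Among the P2 genes, a single one was many times higher in the mutant. AT3G28500 read 114.4 and 113.6 on the WT arrays against 1525.7 and 1242.7 on the vip3 arrays. Both vip3 arrays lay far above both WT arrays, and the transcript went from below the array median to above the upper quartile. The ratio of the geometric means was 12.1, and the ratios over single pairs of arrays ran from 10.9 to 13.4. On the log2 scale vip3 exceeded WT by 3.59 ± 0.13 (SE). The gap between arrays of the same genotype was 0.01 in WT and 0.30 in vip3, also on the log2 scale. Of the 4984 probe sets with a WT mean within 2-fold of that of AT3G28500, 120 were at least 2-fold higher in vip3 and 2 were at least 8-fold higher, AT3G28500 being 1 of these. Over all probe sets 37 had a larger log2 difference, and in all 37 the WT mean was under 50. These counts are a description, since AT3G28500 was known to differ strongly when the family was picked.

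The other bright P2 genes stayed near or below their WT signal. AT3G44590 gave 3600.3 and 3548.3 on the WT arrays against 2205.9 and 2893.4 on the vip3 arrays. Both vip3 arrays were lower, the difference was -0.50 ± 0.12 (log2, SE), and the vip3 arrays were 0.39 apart on the same scale. The neighbouring genes AT2G27710 and AT2G27720 lie side by side in the order of loci. AT2G27710 gave 9049.8 and 9253.0 on the WT arrays against 8085.4 and 8418.5 on the vip3 arrays, a difference of -0.15 ± 0.07 in which the genotypes did not overlap. AT2G27720 gave 6987.1 and 7208.1 on the WT arrays against 6504.0 and 7209.8 on the vip3 arrays, so that the genotypes overlapped, with a difference of -0.05 ± 0.08. The remaining P2 gene, AT5G40040, was dim throughout, at 23.0 and 19.0 on the WT arrays against 36.5 and 44.0 on the vip3 arrays. Both vip3 arrays were higher, but the difference of 0.94 ± 0.58 fell to 0.60 when 16 was added to every signal before the log2 step.

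The P1 genes, whose products pair with P2 on the stalk, had no difference of the size seen at AT3G28500. AT1G01100 gave 10018.6 and 10423.8 on the WT arrays against 9975.9 and 11275.4 on the vip3 arrays, with overlap of the genotypes and a difference of 0.05 ± 0.09 (log2, SE). AT4G00810 gave 5622.9 and 6332.3 on the WT arrays against 6338.9 and 6965.8 on the vip3 arrays. The lower vip3 array was barely above the higher WT array, and the difference was 0.16 ± 0.09, which became 0.07 and 0.24 on dropping WT replicates 1 and 2, and 0.09 on dropping vip3 replicate 2. AT5G47700 went the other way, at 7346.8 and 7617.1 on the WT arrays against 6168.7 and 7179.7 on the vip3 arrays, a difference of -0.17 ± 0.09 without overlap, which shrank to -0.06 without vip3 replicate 1 and widened to -0.28 without vip3 replicate 2. AT5G24510 was dim like AT5G40040, with 18.0 and 25.1 on the WT arrays against 10.9 and 27.1 on the vip3 arrays. Its vip3 arrays lay on either side of the WT arrays, and they were 1.31 apart on the log2 scale, more than the difference of -0.31 ± 0.78.

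The P3 gene AT4G25890, of the plant-specific type, gave 1080.9 and 1128.0 on the WT arrays against 943.7 and 971.1 on the vip3 arrays. Both vip3 arrays were slightly lower, with a difference of -0.21 ± 0.07 (log2, SE). The second P3 gene of the genome, AT5G57290, was taken as a partner outside the 10, and gave 2484.1 and 2470.2 on the WT arrays against 2334.1 and 2599.8 on the vip3 arrays. Its genotypes overlapped and it did not pass (limma adjusted p = 0.97). The test of the difference between the P3 genes was not run.

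**Figure D1:**
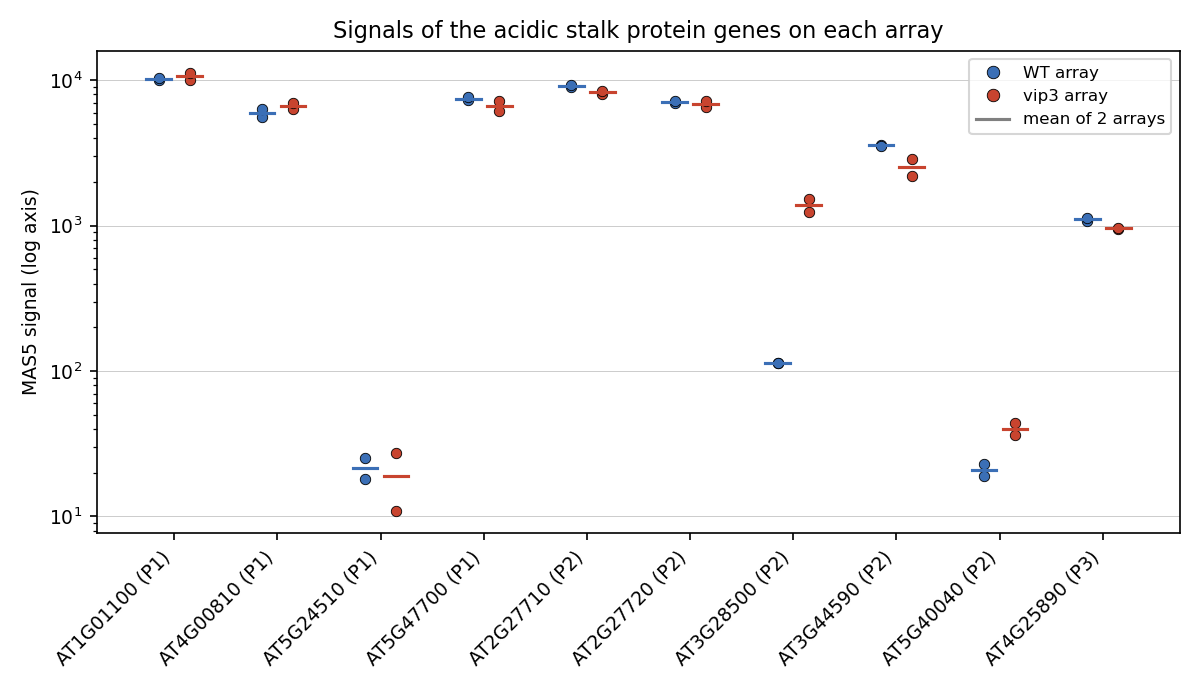
MAS5 signal (log axis) of the 10 acidic stalk protein genes, labelled by locus and type; each point is an array, blue for WT and red for vip3, and each bar the mean of the 2 arrays of a genotype. AT3G28500 moves from about 114 to 1243 and 1525.7, while the 7 genes with WT means of at least 500 differ by between -0.50 and 0.16 on the log2 scale.

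Over the family, both vip3 arrays were above both WT arrays for 3 genes and below for 4, and the genotypes overlapped for the other 3. Of all probe sets 25.9% were higher and 26.3% lower in this sense, 52.2% in either direction. At an adjusted p under 0.05 in limma, 9.8% of all probe sets were called, 4.73% higher and 5.07% lower in vip3. Of the 10 genes AT3G28500 passed as higher and AT3G44590 as lower, and nothing is read from this count, because the family was chosen on this comparison. AT3G44590 no longer passed without WT replicate 1, WT replicate 2 or vip3 replicate 1, which left a count of 1 in each case, and its difference was -0.30 without vip3 replicate 1. With 16 added to every signal before the log2 step AT3G44590 did not pass either, though its difference stayed at -0.50. With a constant prior variance in place of the trend, 0 of all probe sets passed. The median log2 difference was -0.10 over the 10 genes, -0.15 over the 9 without AT3G28500 and 0.00 over all probe sets. For the 7 genes with a WT mean of at least 500, arrays of the same genotype were between 0.02 and 0.39 apart on the log2 scale. None of the 10 probe sets carried the array's suffix for probes shared between genes, and the similarity of the sequences was not analysed here.

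The partners of the acidic proteins were compared to see whether the stalk as a whole differed between the genotypes. All 8 listed partner loci were measured, and 0 passed in limma (3 at an unadjusted p under 0.05, AT3G11250, AT2G37190 and AT3G53430). Of all 22746 probe sets 9.8% passed, and 5399 were at an unadjusted p under 0.05. Among 8 loci a count of 0 is near that share, so nothing is read from it. Of the P0 genes, which encode the anchor of the stalk, AT3G09200 had 12661 ± 33.5 (SD, n = 2) in WT and 12794 ± 1448 in vip3, a log2 difference of 0.01 ± 0.10 (SE). AT3G11250 had 1225 ± 34.4 and 1008 ± 75, a difference of -0.28 ± 0.08 that did not pass (adjusted p = 0.076), and AT2G40010 had 395 ± 81.0 and 347 ± 32.2. The genes for L12, which sits at the stalk base, split in direction: AT2G37190 had a difference of -0.22 ± 0.08 and AT3G53430 one of 0.19 ± 0.08, with no overlap of the genotypes for either, and AT5G60670 one of 0.00 ± 0.13. AT1G25260, a P0-like factor of ribosome assembly, had 2135 ± 25.2 and 2180 ± 24.7. The median log2 difference of the 8 partners was 0.00, that of all probe sets.

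Few of the listed genes for translation factors and CK2 were measured, and none of these passed, against 9.8% of all probe sets. Of 18 listed elongation and release factors 3 were measured, AT5G12110 and AT5G19510 of the eEF1B exchange factor and AT1G18070 of the release factor, and their log2 differences of 0.07, 0.14 and 0.09 did not pass. The 1 measured CK2 gene of 8 listed, AT2G23070, which encodes a catalytic subunit directed to the chloroplast rather than to the cytosol, had a difference of 0.16 ± 0.07 (adjusted p = 0.23). Mitochondria have a bacterial-type stalk built from L7/L12 proteins. Of its 4 measured genes AT3G06040 fell from 1107 ± 54.7 to 839 ± 7.64 (log2 difference -0.40 ± 0.08 SE, limma adjusted p = 0.02), and the others had differences between -0.03 and -0.01. Dropping any single array ended this call: the adjusted p became 0.051 and 0.11 for WT replicates 1 and 2, and 0.12 and 0.11 for vip3 replicates 1 and 2. The listed plastid loci were not analysed here, as the annotation named no probe set for them alone.

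**Figure D2:**
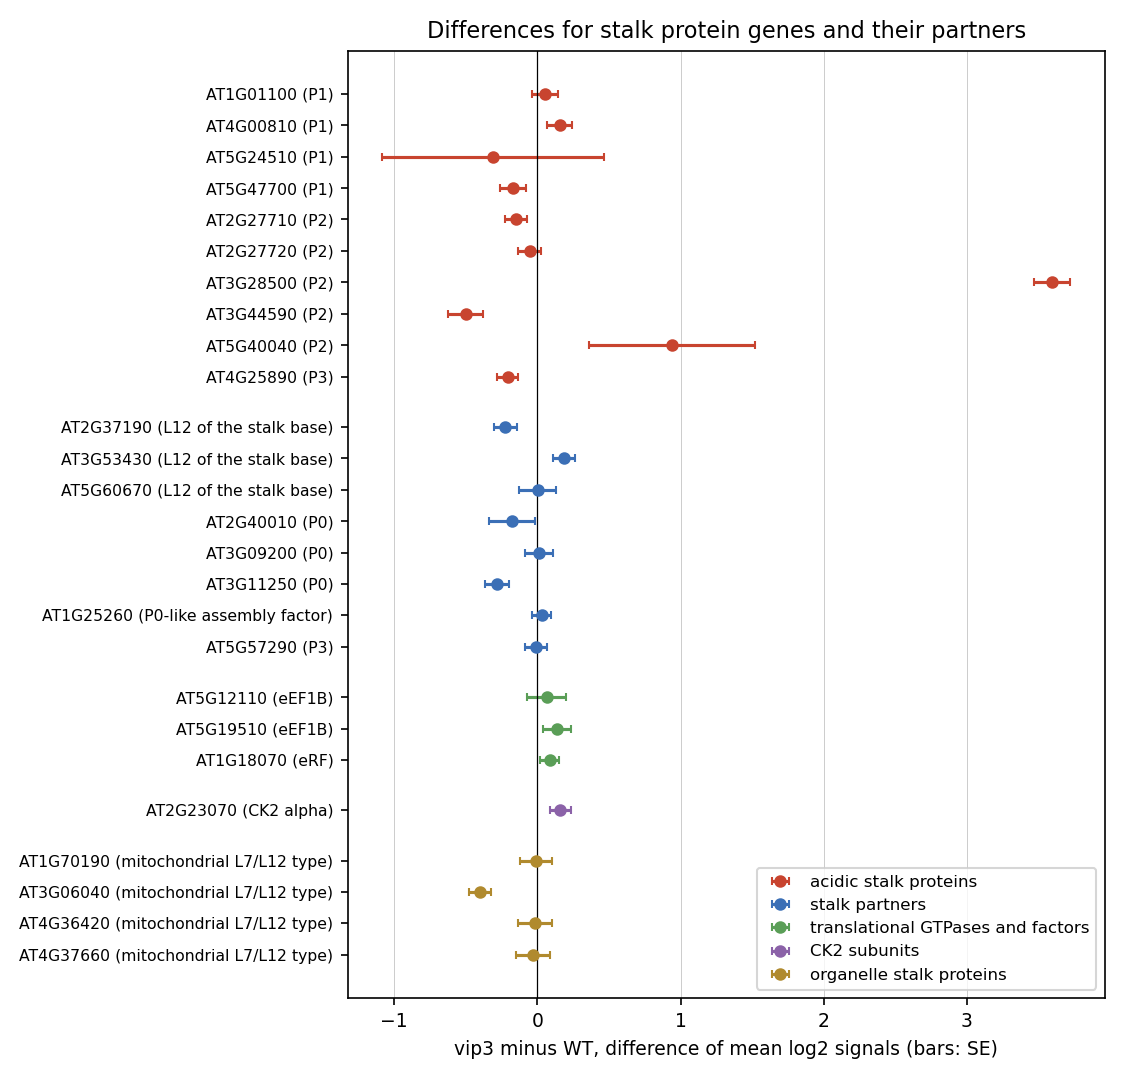
Difference of mean log2 signals, vip3 minus WT, with SE bars from limma, for the acidic stalk protein genes (red) and the measured genes of the partner lists (other colours). AT3G28500 stands at 3.59, while the 8 stalk partners lie between -0.28 and 0.19.

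The remaining cytosolic ribosomal protein genes served as the wider comparison. Of 210 listed loci 116 had a probe set of their own, 68 of the 60S and 48 of the 40S subunit. In limma 2 passed as higher and 7 as lower in vip3, or 7.76% of the 116, against 9.8% of all probe sets, and their median log2 difference was 0.02. The genes that rose were AT3G06680 of the 60S list (log2 difference 0.33 ± 0.08 SE, adjusted p = 0.035) and AT2G17360 of the 40S list (0.30 ± 0.07, adjusted p = 0.034). Those that fell in the 60S list were AT2G32220 (-0.83 ± 0.14), AT4G13170 (-0.45 ± 0.08) and AT4G10450 (-0.28 ± 0.07), with adjusted p-values from 0.011 to 0.0496. In the 40S list AT1G23410 fell from 410 ± 19.4 to 176 ± 11.7 (-1.22 ± 0.14, adjusted p = 0.0023), and AT5G59240, AT3G57490 and AT3G10610 had log2 differences of -1.07, -0.67 and -0.34. AT1G23410 was the single gene of these 9 that passed whichever array was left out, and the count fell to 2 and 3 on dropping WT replicates 1 and 2, and to 1 on dropping either vip3 replicate.

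No other cytosolic ribosomal protein gene with a clear signal came near AT3G28500. Among the 102 of the 116 with a mean of at least 100 in either genotype, log2 differences ran from -1.22 to 0.36. Among the 14 dimmer ones they ran from -0.78 to 2.37, and 0 of these passed in limma (lowest adjusted p = 0.29, and 0 at an unadjusted p under 0.05). The ranges are a description, since AT3G28500 was known to be an extreme value when the comparison was set up.

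**Figure D3:**
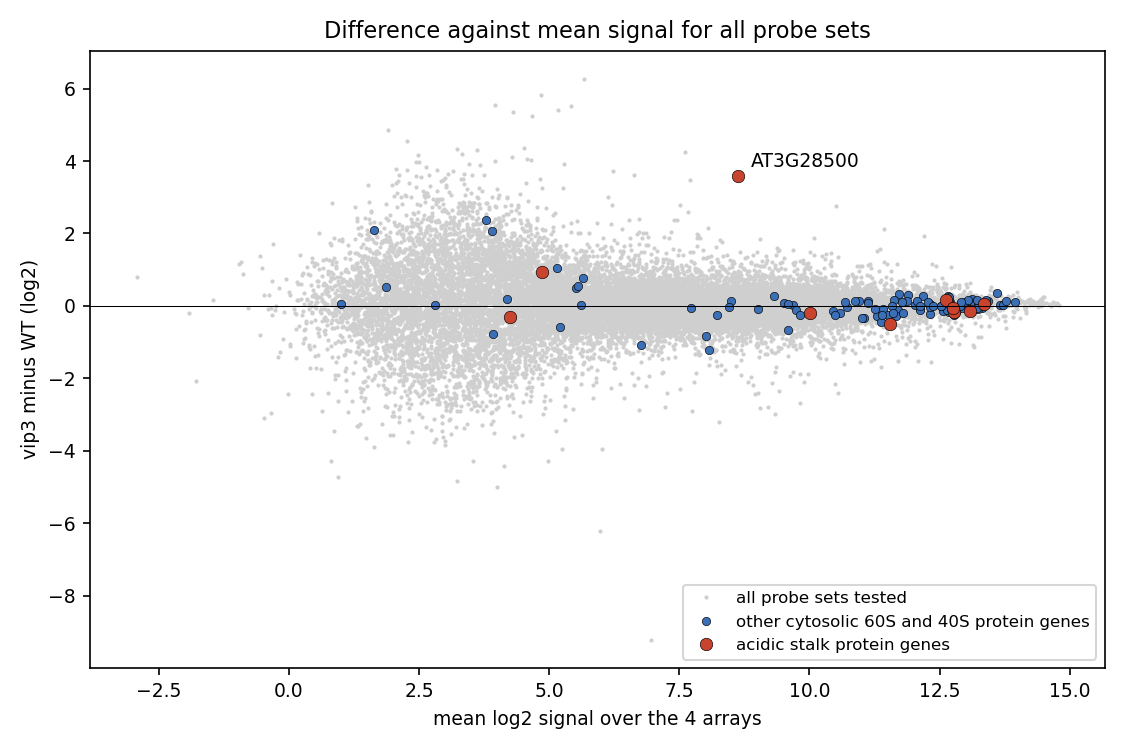
Difference of mean log2 signals, vip3 minus WT, against the mean log2 signal of the 4 arrays for all 22746 probe sets (grey), the 116 other cytosolic ribosomal protein genes (blue) and the 10 acidic stalk protein genes (red). The spread of grey points widens at low signal, and AT3G28500 at 3.59 lies apart from the other ribosomal protein genes of clear signal.

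Loci on either side of the 10 genes were examined to see whether the neighbourhood of AT3G28500 differed as well. On 1 side of AT3G28500 the nearest measured loci were AT3G28490, AT3G28480 and AT3G28460, and on the other AT3G28510, AT3G28520 and AT3G28530. None of these 6 passed in limma, against 9.8% of all probe sets. Among 6 loci a count of 0 is near that share, so nothing is read from it. The genotypes did not overlap at 3 of the 6, against 52.2% of all probe sets. AT3G28490, the next locus, gave 14.7 and 6.1 on the WT arrays against 1.6 and 3.0 on the vip3 arrays, so it was lower on both vip3 arrays but near the bottom of the signal range (limma adjusted p = 0.29). AT3G28460 was also lower on both vip3 arrays, with 1154.8 and 1180.1 for WT and 1011.9 and 1071.1 for vip3 (log2 difference -0.17 ± 0.07 SE, adjusted p = 0.23). AT3G28520 was higher on both vip3 arrays but dim, with 4.2 and 4.1 for WT and 5.6 and 15.8 for vip3 (adjusted p = 0.56). The genotypes overlapped at the other 3 loci, where signals lay between 478.3 and 509.3 for AT3G28480, between 16 and 37.5 for AT3G28510, and between 105.1 and 144.1 for AT3G28530, whose probe set carries the suffix for shared probes.

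**Figure D4:**
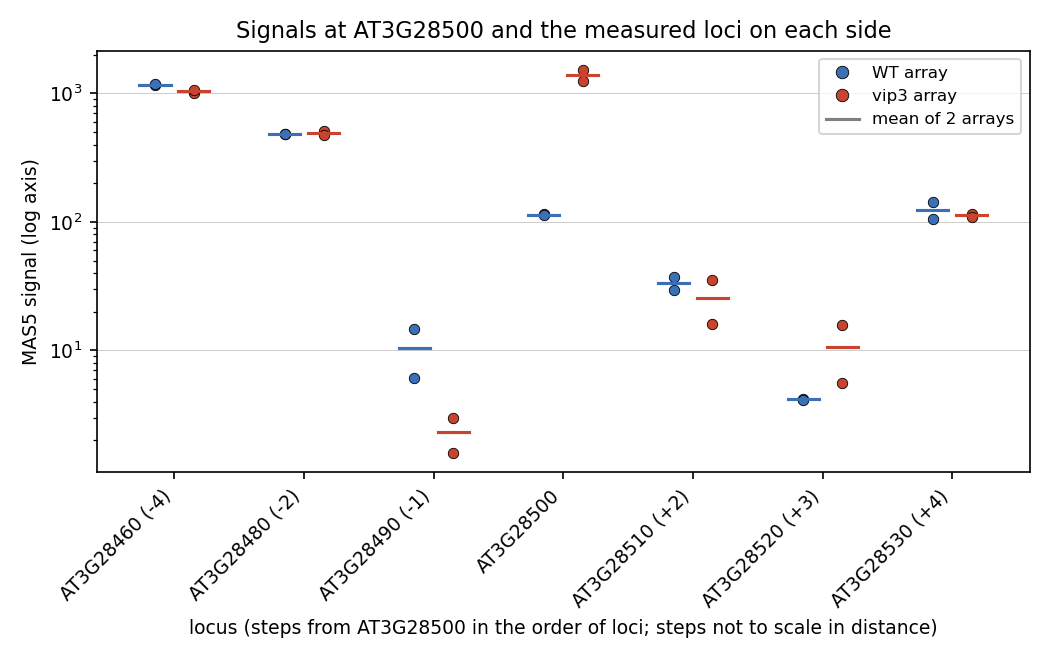
MAS5 signal (log axis) at AT3G28500 and at the 3 nearest measured loci on each side, with the number of steps in the order of loci in parentheses; blue points are WT arrays, red points vip3 arrays and bars their means. The signal of AT3G28500 differs by a ratio of 12.1 between the genotypes. None of the 6 flanking loci passed in limma, against 9.8% of all probe sets.

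Around all 10 genes, 53 flanking loci outside the family were measured, of which 0 passed as higher and 2 as lower, or 3.77%, against 9.8% of all probe sets (4.73% higher and 5.07% lower). These were AT4G25900, the locus next to the P3 gene AT4G25890, with mean signals of 822 for WT and 506 for vip3 (log2 difference -0.70 ± 0.09 SE, adjusted p = 0.0033), and AT5G24570, 7 loci from AT5G24510, with 1269 and 862 (-0.56 ± 0.08, adjusted p = 0.005). On dropping vip3 replicate 2 neither passed (adjusted p = 0.054 and 0.071), and on dropping vip3 replicate 1 AT5G24570 did not (0.056).

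Genes with the signal pattern most like AT3G28500 were found by the root mean square distance between log2 signals on the 4 arrays, each gene centred on its own mean, among the 8221 probe sets with 1 named gene and at least 50 in both genotype means. The nearest was AT1G20390, a pseudogene in the RefSeq table, at a distance of 0.09, with signals of 59.3 and 66.0 on the WT arrays against 753.3 and 652.6 on the vip3 arrays. AT4G23680 (0.43), the asparaginase gene ASPGB1 (0.54), WSD1 (0.63), which encodes an enzyme of wax ester synthesis, and AT1G43910 (0.67) followed. Their log2 differences were 3.49, 2.78, 2.58, 2.36 and 2.38. With 4 arrays such likeness mostly restates the difference between the genotypes and its size.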

How the data were processed

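RNA from 2 WT and 2 vip3 pools was hybridised to ATH1 arrays, 1 pool per array. The deposited values are signal intensities that the authors made with MAS5, which corrects background and mismatch signal, summarises each probe set and usually scales each array; the sources used here give no version of it. The study's own calls came from GCRMA values, not used here. Without the 64 control probe sets, log2 signals of the remaining 22746 were fitted in limma 3.58.1 (R 4.3.3; functions lmFit and eBayes), using a variance trend and Benjamini-Hochberg adjustment over all of them. SE values are limma's. The script was tested on simulated data of 22746 probe sets. In these, 200 were raised 2-fold and 200 lowered 4-fold in vip3, drawn from all signal levels. It called 41.5% and 44.5% of these, with 12 false calls, so a gene that did not pass may still differ. The changed probe sets were fewer than the 2229 called in the real data, so the rates do not carry over to the fit used here. Gene names came from the platform annotation at GEO and a RefSeq gene table of TAIR10.1: 13513 probe sets had 1 gene symbol, 503 several and 8794 none. No genome build is given for the arrays, so coordinates are not printed; sequences were not used here. VIP3 was not analysed here, as no probe set was named for it alone. Members and lists were chosen with earlier results of these data known. Families of loci were assigned from general knowledge of Arabidopsis ribosomal proteins, and the list of other 60S and 40S genes was written after the annotation had been seen. Named genes were the 10 members, all measured genes of the hand-written lists, up to 4 called genes per direction of each ribosomal list (made by hand, since the gene table holds no descriptions), the loci flanking AT3G28500 and the 5 of most like pattern; the 2 called loci flanking other members were named after their values were seen. With 2 arrays against 2, a two-sided exact permutation test cannot go below 0.333. The number of arrays limits precision. Alternatives were the variance model, an offset of 16, the normalization, filters, a replicate block and the removal of each array.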

Additional observations from a re-analysis of the deposited data

Results flagged for a closer look

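The control probe set for 25S ribosomal RNA, which is outside the 22746 probe sets tested, had a mean 1.91 times higher in vip3 (223.5 and 320.9) than in WT (148 and 137.6), so that both vip3 arrays lay above both WT arrays. The control for 5S ribosomal RNA gave 114.8 and 103.4 on the WT arrays against 101 and 135.9 on the vip3 arrays, with overlap of the genotypes.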

How the results depend on the processing

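With a constant prior variance no count remained: 0 of all probe sets passed in limma (3798 at an unadjusted p under 0.05), 0 of the 10 stalk protein genes (2), 0 of the 16 measured genes of the hand-written translation lists (1), 0 of the 116 other ribosomal protein genes (7) and 0 of the 53 flanking loci (11). With 16 added before log2 the stalk protein genes gave 1, AT3G28500, and AT3G44590 no longer passed. When each array was left out in turn, the counts ranged from 442 to 1332 over all probe sets (2229 with all arrays), from 1 to 2 for the stalk protein genes (2), from 0 to 0 for the translation lists (1) and from 0 to 3 for the flanking loci (2). The replicate block gave 2339 probe sets, 2 stalk protein genes, 1 gene of the translation lists and 2 flanking loci; same-numbered arrays deviated from their genotype means with a correlation of -0.044, and share only a number. The log2 difference of AT3G28500 ran from 3.42 to 3.74 over 12 alternatives and that of AT3G44590 from -0.70 to -0.30. The sign of AT2G27720 and AT5G24510 turned without vip3 replicate 1 (0.02 and 0.35), and that of AT1G01100 without vip3 replicate 2 (-0.03). The dim genes AT5G40040 and AT5G24510 had signals under 50 on every array and were absent from the test without the 40% dimmest probe sets.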
